A study of Mus musculus with 12 samples.

Results

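Transfer RNA repeats are the rows of a repeat count table that name a transfer RNA (tRNA). They were taken as every row whose class is exactly tRNA, and were grouped by the amino acid in the name. This gave 60 of the 18538 rows, for 20 standard amino acids and selenocysteine. The rule uses the annotation alone and no measured value. The libraries, 6 KO and 6 WT, were of total RNA from 2-cell mouse embryos of the strain C57BL/6, taken 1.5 days after fertilization. KO embryos came from Kdm4a knockout oocytes and had neither a maternal nor a paternal working allele (m-/p-). WT embryos came from wild-type oocytes and had the maternal allele only (m+/p-), because Kdm4a knockout sperm fertilized the oocytes of both groups. Kdm4a encodes a demethylase of histone H3 lysines. The WT embryos therefore lack the paternal allele too, and the contrast is of the maternal allele with the product stored in the oocyte. The labels give neither the number of embryos in a library nor the number of females, so p-values measure the spread between these libraries, which may be technical.

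A tRNA carries an amino acid to the ribosome and pairs its anticodon with a codon of the messenger RNA. Nuclear tRNA genes are transcribed by RNA polymerase III from a promoter inside the gene and occur in many copies, while the mitochondrial genome encodes a set of its own. Mature tRNAs are short, folded and heavily modified, and ordinary total RNA libraries capture them poorly. In early embryos tRNAs come both from the oocyte's store and from transcription after fertilization. Many dispersed tRNA-like copies also lie in introns and untranslated regions, and reads from a host transcript that carries such a copy count for its row as well.

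The triplets in the names are codons, not anticodons. Of 57 names with a triplet, 57 hold one that codes for the named amino acid when read as a codon (TGA for selenocysteine) and 0 when read as an anticodon. The remaining 3 names are of methionine and include tRNA-Met-i, the initiator that starts every nuclear-encoded protein. A Y in a triplet stands for C or T. The closing marks in the names (_ alone in 11 names, _m_ in 2) and the _e_ of selenocysteine are not explained in the sources used here.

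Total counts were 7952526 to 16493286 in KO libraries and 10946392 to 18902360 in WT libraries. The 2-cell markers were present in every library: MERVL-int held 2.48% to 4.27% of the counts in KO and 4.42% to 7.004% in WT. The tables hold repeats only, so the level of Kdm4a was not analysed here. Ribosomal RNA repeats held 5.55% ± 0.775 of the counts in KO and 5.74% ± 0.488 in WT (SD, n = 6 each). WT replicate 2 and KO replicate 5, the shallowest of each group, stood apart in an earlier look at these data, and the tests of single tRNA rows and of amino acid sums were also made without both.

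The tRNA rows took a small part of each library. They held 14712, 28093 and 32838 counts in KO libraries (lowest, median and highest) and 21727, 25491 and 31745 in WT libraries. As a share of all counts this was 0.156%, 0.191% and 0.231% in KO against 0.143%, 0.184% and 0.216% in WT. The 2 groups overlapped along nearly their whole range, with KO replicate 3 the highest library and WT replicate 1 the lowest. The means were 0.192% ± 0.0247 in KO and 0.182% ± 0.0290 in WT (SD, n = 6 each), and no test was made of this sum. The direction depended on what the share was taken of. Among counts outside the LTR class of retrotransposons, tRNA rows held 0.366% ± 0.0404 in KO and 0.415% ± 0.0763 in WT. Fewer cells and less RNA per cell cannot be told apart in such libraries.

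A few rows held nearly all of the tRNA counts. Over the 12 libraries, tRNA-Leu-TTA_m_ took 54.2%, tRNA-Gln-CAA_ 16.9% and tRNA-Ser-TCA_m_ 7.12% of 314865 counts. Together these 3 rows held 77.5% ± 4.35 of the tRNA counts in KO and 79.5% ± 5.74 in WT (SD, n = 6 each). The 4 rows next in order were tRNA-Ala-GCY_, tRNA-Cys-TGY, tRNA-SeC_e_-TGA and tRNA-Ala-GCA, with 6.89%, 3.54%, 2.76% and 2.08%. The other 53 rows shared what was left, since the first 7 held 93.5%. The order was stable at the top: tRNA-Leu-TTA_m_ ranked 1 and tRNA-Gln-CAA_ ranked 2 in all 12 libraries. These are shares of reads. The summed length of the copies behind each row is unknown, so no level per length was set between rows.

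**Figure D1:**
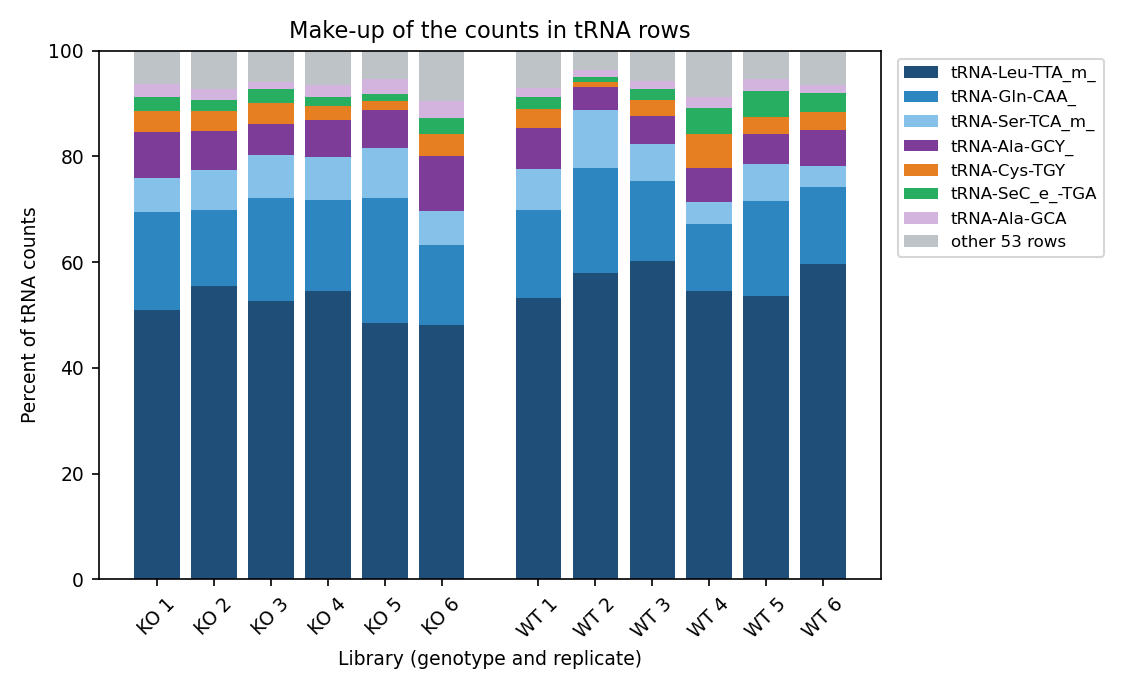
Percent of the counts in tRNA rows held by the 7 most-read rows and by the other 53, one bar per library, KO libraries left of WT libraries. tRNA-Leu-TTA_m_ holds 48.0% to 55.5% in KO libraries and 53.3% to 60.3% in WT libraries, and WT replicate 2 has the largest part in the 3 most-read rows (88.7%).

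The 2 rows marked _m_ read the codons TTA and TCA. The mitochondrial genome has a leucine tRNA gene for codons of the TTA kind, TrnL1 (GRCm38, MT:2676-2750, 75 bases, in a tract with the 16S ribosomal RNA gene on one side and ND1 on the other), and a serine tRNA gene for those of the TCA kind, TrnS1 (MT:6870-6938). It also has a glutamine tRNA gene, TrnQ (MT:3772-3842). A mitochondrial gene is not particular to the amino acids of the most-read rows. The mitochondrial genome has 22 tRNA genes, among them TrnG for glycine and TrnW for tryptophan, whose rows were far less read. The mark was not explained and the deposited rows carry no positions, so whether reads of mitochondrial transcripts enter these rows was not tested. The unmarked row of the same codon was far less read: tRNA-Leu-TTA had 366 counts over the 12 libraries against 170616 for tRNA-Leu-TTA_m_, and tRNA-Ser-TCA had 47 against 22417 for tRNA-Ser-TCA_m_. tRNA-Gln-CAA had 79 against 53260 for tRNA-Gln-CAA_. These 3 unmarked rows were picked after their values were seen.

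The 3 most-read rows did not keep a fixed ratio to each other. Counts of tRNA-Leu-TTA_m_ were 2.05 to 3.86 times those of tRNA-Gln-CAA_ in KO libraries and 2.91 to 4.31 times in WT libraries. Against tRNA-Ser-TCA_m_ the factor was 5.08 to 7.93 in KO and 5.34 to 15.1 in WT. The spread within a genotype was therefore wide even for the best-read rows.

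Outside these 3 rows, amino acids with more nuclear tRNA genes tended to have more counts, selenocysteine aside. The RefSeq table of GRCm38 used here lists 408 nuclear tRNA genes for 20 amino acids, with 57 genes for cysteine, 33 for alanine, 7 for phenylalanine and 8 for tryptophan. Spearman's rho between gene number and counts was 0.664 over the 20 amino acids with all rows, and 0.782 without the 3 most-read rows. Selenocysteine, with 0 genes in that table but 8684 counts, was left out of both values. The points share the same libraries, and genes of an amino acid are not independent, so this is a description without a test. Cysteine (11147 counts) and alanine (30022 counts) led the remaining amino acids, while glycine had 28 genes and only 904 counts. The mouse SINE families B2 and ID descend from tRNA or tRNA-like genes, and how reads were divided between them and the tRNA rows is unknown.

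**Figure D2:**
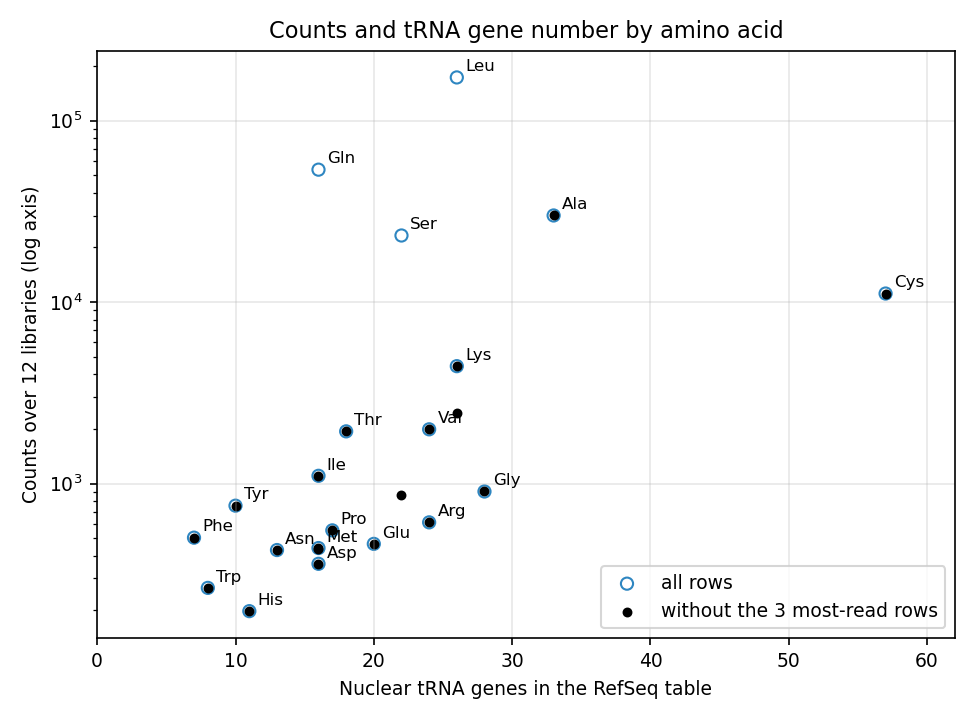
Counts over the 12 libraries (log axis) against the number of nuclear tRNA genes in the RefSeq table, one point per amino acid, with all rows (open circles) and without the 3 most-read rows (filled circles). Selenocysteine, with 0 genes in that table, is not shown. Leucine, glutamine and serine drop to 2463, 434 and 869 counts without those rows, and cysteine lies farthest right with 57 genes.

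The comparison of KO with WT asked whether the loss of maternal Kdm4a changed the level of any tRNA row. No tRNA row passed the test over the whole table. Of 3312 repeats tested with edgeR's quasi-likelihood test, 47 (1.42%) had a Benjamini-Hochberg adjusted p under 0.05, and 0 of the 39 tested tRNA rows were among them. At an unadjusted p under 0.05, 1 tRNA row was higher and 4 were lower in KO, against 5.5% of all tested repeats higher and 7.91% lower. DESeq2 called 0 of the 17 tRNA rows for which it gave an adjusted p (7.66% of all repeats with one were called), and limma-voom with quality weights called 0 of 39 (2.11% of all repeats). In no tested tRNA row did the KO libraries lie wholly below or wholly above the WT libraries, which 1.39% and 0.725% of all tested repeats did.

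The median log2 fold change, KO over WT, was -0.13 over the 39 tested tRNA rows (16 positive, 23 negative) and 0.01 over all 3312 repeats. Scaling by total counts in place of TMM, a scaling that corrects for composition, turned the tRNA median to 0.18 and moved that of all repeats to 0.32. In both cases the tRNA median was below that of all repeats. The change of scaling moved both medians by about as much, so the second case is not a separate check. Between libraries of a group, the median log2 deviation of the tested tRNA rows had an SD of 0.24. The difference between the medians was not tested. Precision differed with depth. The median standard error of a log2 fold change was 0.24 for the 8 rows that averaged 10 or more normalised CPM (counts scaled to library size and composition) and 0.58 for the 31 below. For 30 of the 39 rows the 95% interval reached beyond a log2 value of 1 in one direction or the other, so a change of 1 log2 unit was not excluded in these rows.

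The initiator tRNA-Met-i came closest to the threshold. Its counts were 20, 8, 7, 8, 6 and 19 in KO replicates 1 to 6, against 39, 24, 22, 47, 13 and 29 in WT replicates 1 to 6. As normalised CPM the KO libraries had 0.467, 0.659 and 1.05 (lowest, median and highest), and the WT libraries 0.861, 2.62 and 2.86. All 6 KO libraries lay below 5 of the 6 WT libraries, and only WT replicate 5 was within the KO range. The mean was 0.715 ± 0.243 in KO and 2.22 ± 0.808 in WT (SD, n = 6 each). The log2 fold change was -1.61 (standard error 0.38, 95% interval -2.43 to -0.79, edgeR adjusted p = 0.0517).

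The call of tRNA-Met-i turned on small choices. Its adjusted p by edgeR was 0.0275 without WT replicate 5, 0.0463 with a stricter filter (at least 1 CPM in 6 libraries) and 0.0486 with TMM factors computed without simple repeats and ribosomal RNA. In the other alternatives that gave one it ran up to 0.184, the value with no filter, and it was 0.136 without both WT replicate 2 and KO replicate 5. The log2 fold change stayed between -1.79 and -1.26 in all 21 alternatives. The other methionine rows, tRNA-Met and tRNA-Met_, were too rarely counted to be tested, with 134 and 65 counts over the 12 libraries. All methionine rows summed had 2.00 ± 0.712 normalised CPM in KO and 3.11 ± 0.960 in WT (SD, n = 6 each; log2 fold change -0.63, edgeR adjusted p = 0.471).

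**Figure D3:**
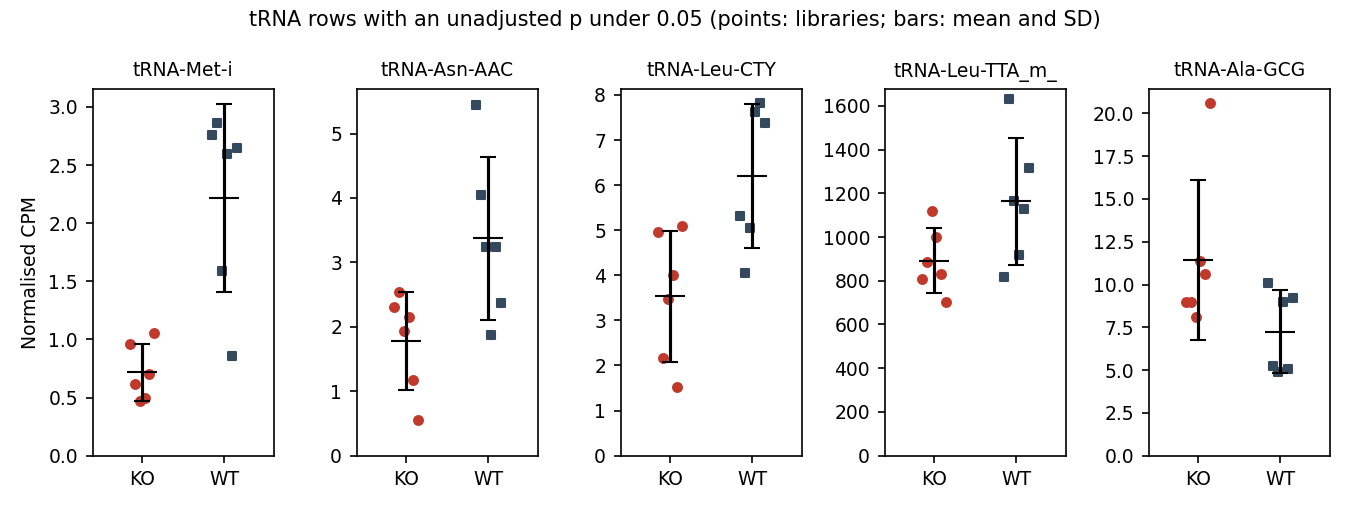
Normalised CPM in each library (points) with mean and SD (bars) for the 5 tRNA rows with an unadjusted p under 0.05, KO left of WT, each panel on its own axis from 0. In tRNA-Met-i only WT replicate 5 (0.861) is within the KO range, and in tRNA-Ala-GCG the KO mean is raised by KO replicate 6 (20.6).

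The other rows with an unadjusted p under 0.05 were of leucine, asparagine and alanine. tRNA-Leu-CTY, which reads leucine codons of the CTY kind, had 1.52, 3.74 and 5.09 normalised CPM in KO (lowest, median and highest) and 4.05, 6.34 and 7.82 in WT. No KO library was above the WT median, while KO replicates 1 and 6 lay within the WT range. Its log2 fold change was -0.80 (standard error 0.32, edgeR adjusted p = 0.258). tRNA-Asn-AAC, which reads an asparagine codon, had 0.553, 2.05 and 2.55 normalised CPM in KO and 1.88, 3.25 and 5.45 in WT. The lowest library was KO replicate 6, and WT replicates 4 and 6 fell within the KO range. Its log2 fold change was -0.91 (standard error 0.39, edgeR adjusted p = 0.312). tRNA-Ala-GCG, for an alanine codon that holds a CpG, had 8.08, 9.79 and 20.6 normalised CPM in KO and 4.90, 7.10 and 10.1 in WT. All 6 KO libraries were above the WT median, and KO replicate 6 stood well above the rest. The log2 fold change was 0.66 (standard error 0.28, edgeR adjusted p = 0.312), and 0.40 without KO replicate 6.

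The most-read row, tRNA-Leu-TTA_m_, had 702, 860 and 1121 normalised CPM in KO (lowest, median and highest) and 819, 1147 and 1630 in WT. The groups overlapped, yet none of the 6 KO libraries was above the WT median. The means were 892 ± 149 in KO and 1163 ± 290 in WT (SD, n = 6 each), which gave -0.38 on the log2 scale (95% interval -0.71 to -0.05, edgeR adjusted p = 0.271). Under total-count scaling it was -0.06.

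The other abundant rows had close means in the 2 genotypes. tRNA-Gln-CAA_ averaged 313 ± 83.0 normalised CPM in KO and 336 ± 123 in WT (SD, n = 6 each), with a log2 fold change of -0.10 (95% interval -0.58 to 0.37). tRNA-Ser-TCA_m_ averaged 134 ± 33.4 in KO and 144 ± 84.4 in WT, also with -0.10 (95% interval -0.73 to 0.53). In both of these rows WT replicate 2 was the highest library, at 559 and 306 normalised CPM, and without it the log2 fold changes were 0.10 and 0.26. tRNA-Ala-GCY_, an alanine row, was the most evenly read: 118, 126 and 152 normalised CPM in KO (lowest, median and highest) against 104, 119 and 150 in WT. Its log2 fold change of 0.12 had the narrowest interval of all tested tRNA rows, -0.09 to 0.33. tRNA-Ala-GCA averaged 40.1 ± 7.47 normalised CPM in KO and 35.8 ± 8.27 in WT (log2 fold change 0.17, edgeR adjusted p = 0.757).

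Cysteine and selenocysteine, encoded by TGY and TGA, differed in how they spread. tRNA-Cys-TGY had 29.2, 60.7 and 85.7 normalised CPM in KO (lowest, median and highest) and 31.1, 62.2 and 106 in WT, which gave -0.17 on the log2 scale (edgeR adjusted p = 0.873). The lowest libraries were KO replicate 5 and WT replicate 2. tRNA-SeC_e_-TGA, named for the tRNA that inserts selenocysteine at a recoded stop codon, had 23.1, 37.3 and 53.9 in KO and 22.1, 59.5 and 101 in WT. Here 3 WT libraries (replicates 4, 5 and 6, at 83.1, 101 and 78.9) lay above every KO library, while WT replicates 1 and 3 (34.1 and 40.0) lay among the KO libraries and WT replicate 2 (22.1) lay below them all. The log2 fold change was -0.67 (standard error 0.33, 95% interval -1.37 to 0.03, edgeR adjusted p = 0.397).

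**Figure D4:**
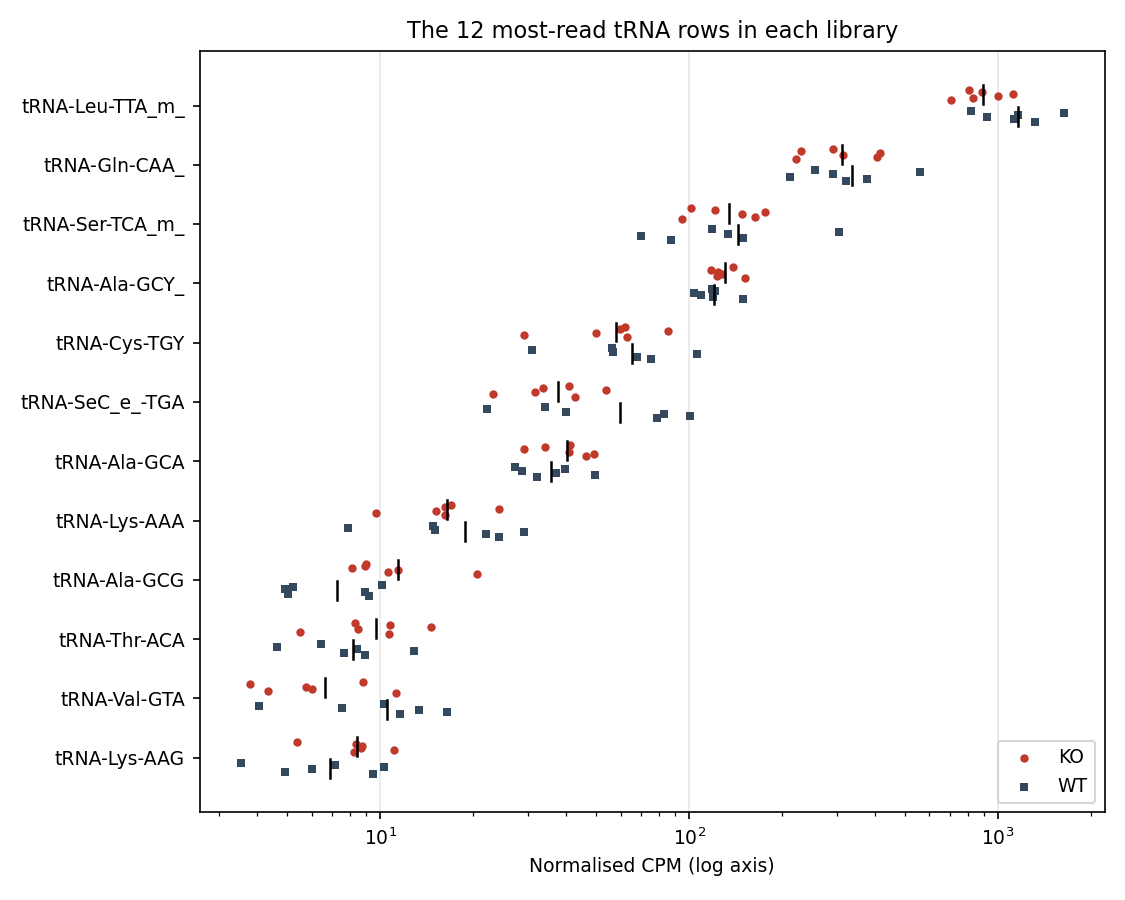
Normalised CPM (log axis) of the 12 most-read tRNA rows, one point per library, KO points above WT points in each row, with a vertical tick at each group's mean. The groups overlap in all 12 rows. In tRNA-SeC_e_-TGA 3 WT libraries (78.9 to 101) lie beyond all KO libraries (23.1 to 53.9).

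Among rarer rows, those with the most positive log2 fold changes were tRNA-Arg-AGA, tRNA-Phe-TTY, tRNA-Gly-GGG and tRNA-His-CAY_, at 1.43, 0.90, 0.79 and 0.76, besides tRNA-Ala-GCG. None passed (edgeR adjusted p = 0.563, 0.435, 0.446 and 0.557). tRNA-Arg-AGA, for an arginine codon, had 57 and 33 counts in KO replicates 3 and 5, 6 to 17 in the other KO libraries, and 0 to 22 in the WT libraries. Its log2 fold change was 1.0105 without KO replicate 3, 1.04 without KO replicate 5 and 2.20 without WT replicate 6, and 0.89 without both WT replicate 2 and KO replicate 5. tRNA-Gly-GGG was more even, with 1.35 to 2.70 normalised CPM in KO and 0.283 to 1.86 in WT, and its 6 KO libraries were all above the WT median. tRNA-Phe-TTY had 1.31 to 5.68 in KO and 0.442 to 3.19 in WT.

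The most negative, after tRNA-Met-i, were tRNA-Pro-CCA (log2 fold change -1.22, edgeR adjusted p = 0.563), tRNA-Asn-AAC, tRNA-Leu-TTG (-0.81, adjusted p = 0.667) and tRNA-Leu-CTY. tRNA-Pro-CCA had 0 to 2.10 normalised CPM in KO and 0.199 to 4.64 in WT, so its groups overlapped. Its log2 fold change was -1.86 without KO replicate 6, -0.70 without WT replicate 2 and -0.58 without both WT replicate 2 and KO replicate 5. For tRNA-Leu-TTG the values were 0.233 to 1.66 in KO and 0.283 to 3.53 in WT.

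The best-read rows of the remaining amino acids had log2 fold changes of -0.66 (tRNA-Val-GTA), -0.43 (tRNA-Arg-AGG), -0.39 (tRNA-Glu-GAG_), -0.38 (tRNA-Gly-GGA), -0.27 (tRNA-Ile-ATT), -0.20 (tRNA-Lys-AAA) and -0.13 (tRNA-Pro-CCY). On the positive side stood 0.25 for tRNA-Tyr-TAC, 0.25 for tRNA-Thr-ACA, 0.43 for tRNA-Trp-TGG and 0.64 for tRNA-Asp-GAY. Their edgeR adjusted p-values ran from 0.425 (tRNA-Val-GTA) to 0.968 (tRNA-Pro-CCY). The value of tRNA-Tyr-TAC was 0.90 without WT replicate 4, and that of tRNA-Trp-TGG was 1.26 without WT replicate 6 and -0.28 without KO replicate 4. Among these 11 rows, tRNA-Asp-GAY had a wide interval (-0.84 to 2.11), although all 6 KO libraries were above the WT median.

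Summing all rows of an amino acid gave 21 features, all of which passed the filter on low counts. In this fit 48 of 3294 features (1.46%) had an adjusted p under 0.05 by edgeR, and 0 of the 21 sums were among them. At an unadjusted p under 0.05, 0 sums were higher (5.56% of all features) and 2 were lower (7.86% of all features), namely leucine and asparagine. Leucine, nearly all of it tRNA-Leu-TTA_m_, averaged 903 ± 148 normalised CPM in KO and 1181 ± 293 in WT (SD, n = 6 each; log2 fold change -0.39, edgeR adjusted p = 0.256). Alanine averaged 183 ± 21.6 in KO and 164 ± 19.1 in WT, with the narrowest interval of the sums (log2 fold change 0.16, 95% interval -0.05 to 0.37, edgeR adjusted p = 0.538). Under total-count scaling, where 11.8% of all repeats were called, alanine passed as a sum (log2 fold change 0.48, edgeR adjusted p = 0.0353) and as the row tRNA-Ala-GCY_ (0.44, adjusted p = 0.0475). That scaling raised the median of all repeats by about as much.

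**Figure D5:**
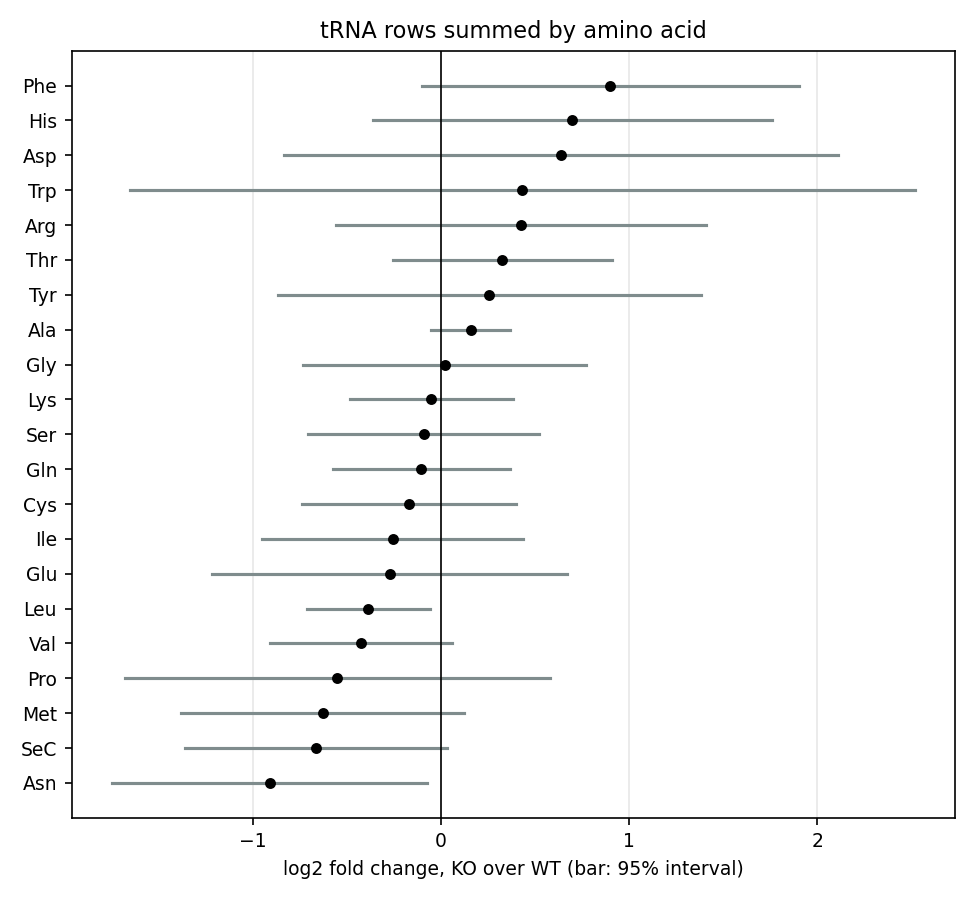
Log2 fold change, KO over WT, of tRNA counts summed by amino acid, with 95% intervals from the edgeR fit (n = 6 libraries a group), ordered from positive to negative. The intervals of leucine and asparagine lie below 0 before adjustment for multiple tests. Alanine and leucine have the narrowest intervals and tryptophan the widest.

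With the 3 most-read rows set apart, an alternative added after the values were seen, the other 6 leucine rows together had 4.32, 10.7 and 14.02 normalised CPM in KO (lowest, median and highest) and 13.4, 18.5 and 22.6 in WT. KO replicates 1 and 6 were the only KO libraries within the WT range. The log2 fold change was -0.80 (standard error 0.25, edgeR adjusted p = 0.119). In WT replicate 2 tRNA-Leu-CTG, a row that did not pass the filter on low counts, alone gave 13.2 of the 20.9 normalised CPM. That row alone kept WT replicate 2 above the KO libraries. The groups overlapped even so, and the extent of the overlap depends on that row.

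Of these leucine rows, tRNA-Leu-CTA_ and tRNA-Leu-CTY had nearly the same counts in most libraries. The ratio of the first to the second was 0.769 to 0.978 in KO and 0.382 to 1.06 in WT, with WT replicate 2 the lowest (13 against 34 counts). Both rows had their lowest normalised CPM of each group in KO replicate 5 and WT replicate 2. tRNA-Val-GTA ran at 1.51 to 2.85 times tRNA-Leu-CTY in KO and at up to 2.10 times in WT, with equal counts in WT replicate 2. tRNA-Leu-CTA_ was singled out after its values were seen, and whether these rows share reads was not tested.

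The remaining 21 tRNA rows did not pass the filter on low counts. Their means over all libraries were 0 to 1.26 normalised CPM, and the highest of them, tRNA-Leu-CTG, owed 111 of its 144 counts to WT replicate 2. tRNA-Tyr-TAT was at 0 in all 12 libraries, which allows up to 3 counts, a limit that covers counting error only, among 169857211 counts in all libraries. tRNA-Arg-CGG and tRNA-His-CAY were at 0 in every KO library and had 2 and 3 counts in all in WT. These rows were named after their values were seen.

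Related rows were taken from 2 lists, to be read against all 3312 tested repeats, of which 1.42% passed and 1696 had positive log2 fold changes (median 0.01). Of 10 small RNAs that RNA polymerase III transcribes, 8 were tested and 0 passed, with 2 positive log2 fold changes and a median of -0.19. At an unadjusted p under 0.05 by edgeR, 3 of them were lower in KO (5S, 7SK and 4.5SRNA), against 7.91% of all tested repeats. 7SK RNA, which holds the elongation factor P-TEFb in an inactive complex, averaged 1963 ± 399 normalised CPM in KO and 2955 ± 849 in WT (SD, n = 6 each; log2 fold change -0.59, edgeR adjusted p = 0.175). 5S ribosomal RNA averaged 768 ± 288 in KO and 1332 ± 472 in WT (log2 fold change -0.79, edgeR adjusted p = 0.192). BC1_Mm, a neuronal RNA polymerase III transcript related to the ID repeats, averaged 561 ± 48.2 in KO and 557 ± 22.5 in WT. The other tested rows of this list had log2 fold changes of -0.32 (HY3), -0.22 (4.5SRNA), -0.16 (7SLRNA), -0.07 (U6) and 0.41 (HY1). Of 10 tRNA-derived SINE rows, 10 were tested, 0 passed, and all 10 had positive log2 fold changes with a median of 0.09. B2_Mm1a, B2_Mm1t and B2_Mm2 stood highest, at 0.30, 0.31 and 0.27, and the others ran from 0.004 (ID) to 0.09 (ID_B1). Only these 3 B2_Mm rows had an unadjusted p under 0.05 by edgeR, against 5.5% of all tested repeats higher in KO. These rows are related and may share reads, so their signs are not independent. The difference between these lists and the tRNA rows was not tested.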

How the data were processed

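The files the authors deposited hold an estimated count for every repeat name, beside its class and family. All values were whole numbers. Per the submitters' processing notes the build was mm10 and Trimmomatic 0.32 and edgeR were used, with no role stated. For the aligner, repeat annotation, counting program and use of strand: not given in the sources used here. How multiply aligned reads were treated is not settled by the labels, so near-identical tRNA rows may share reads.

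Groups and replicate numbers came from the sample titles. All rows were tested in edgeR 4.0.16 (R 4.3.3): filterByExpr with the group, TMM factors, quasi-likelihood F test with genotype as the only term, Benjamini-Hochberg over all tested rows, threshold 0.05. Standard errors came from the F statistic. After this fit, the test was also run on counts simulated from it, with the outcome not reported here. A second fit replaced tRNA rows by their sums per amino acid. Alternatives were total-count and RLE scaling, TMM without simple repeats and rRNA, other filters, a replicate block, DESeq2 1.42.0, limma 3.58.1 voom with quality weights, summing of marked names, and removal of libraries. RefSeq gene counts and coordinates are of GRCm38.p6.

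Rows named in the text were the 10 most read, the most read of each amino acid, the 5 most positive and 5 most negative tested rows averaging 1 normalised CPM or more, and the initiator and selenocysteine rows (28 in all). The members, lists and rules were chosen with earlier results of these data known. No pair of replicates agreed within sampling noise (chi-square per degree of freedom 25.0 to 143.8). PCR copies were not told apart, so limits cover counting error only.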

Additional observations from a re-analysis of the deposited data

Results flagged for a closer look

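In 62 groups of 6 libraries checked for a library far from the other 5, 4 were found. For groups chosen beforehand, chance gives about 1 in 20. tRNA-Leu-CTA_ and tRNA-Leu-CTG were added to the check after their values were seen. Most other rows were named by their level or log2 fold change, which an outlying library can shift. The flags therefore cannot be set against that rate. WT replicate 2 stood apart in 2 rows: it had 305.6 normalised CPM of tRNA-Ser-TCA_m_, against 149.3 in the next WT library, and 13.22 of tRNA-Leu-CTG, against 0.9396 in the next. KO replicate 6 had 20.64 normalised CPM of tRNA-Ala-GCG, against 11.39 in the next KO library. WT replicate 6 had 4.193 normalised CPM of tRNA-Trp-TGG, against 1.548 in the next WT library.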

How the results depend on the processing

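The count of tRNA rows called was 0 as reported and 1 under total-count scaling (tRNA-Ala-GCY_), with TMM without simple repeats and rRNA, with the stricter filter and without WT replicate 5 (each tRNA-Met-i), and 0 in all other settings, so leaving out a library gave 0 to 1. The count of amino acid sums called was 0, and 1 under total-count scaling. The median log2 fold change of the tested tRNA rows was -0.13, and 0.1836 under total-count scaling. The ratio of the mean tRNA share, KO over WT, was 1.05, and 0.8828 among counts outside the LTR class. With the replicate block 0 tRNA rows were called. For each library the deviation of log CPM from its group's mean was taken in all tested rows. These deviations correlated at -0.07 to 0.15 between same-numbered libraries. Of 6 KO libraries, 2 correlated best with the WT library of their own number, so the libraries were not treated as pairs.

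Of 587 alternatives for the 28 named rows, 546 kept direction and side of the threshold, 13 by DESeq2 kept direction but had no adjusted p (tRNA-Met-i among them), 4 gained a call and 24 turned a direction, none with a call. tRNA-Arg-AGA had no value under the stricter filter. Under total-count scaling the log2 fold change became 0.2296 (tRNA-Gln-CAA_), 0.2443 (tRNA-Ser-TCA_m_), 0.1177 (tRNA-Cys-TGY), 0.0832 (tRNA-Lys-AAA), 0.011 (tRNA-Ile-ATT) and 0.1836 (tRNA-Pro-CCY). Without both WT replicate 2 and KO replicate 5 it became 0.015 (tRNA-Gln-CAA_), 0.2023 (tRNA-Ser-TCA_m_), -0.0032 (tRNA-Asp-GAY) and 0.1373 (tRNA-Pro-CCY). By limma-voom it was 0.0133, 0.1864 and 0.0688 (tRNA-Gln-CAA_, tRNA-Ser-TCA_m_, tRNA-Pro-CCY), and with the replicate block 0.0379 (tRNA-Ser-TCA_m_). Leaving out one library gave -0.205 to 0.1007 (tRNA-Gln-CAA_), -0.2393 to 0.2645 (tRNA-Ser-TCA_m_), -0.3146 to 0.0213 (tRNA-Cys-TGY), -0.4903 to 0.097 (tRNA-Pro-CCY), -0.8768 to 0.0199 (tRNA-Glu-GAG_) and -0.2813 to 1.2618 (tRNA-Trp-TGG). The cause was not tested. Standard errors were larger in rarer rows (median 0.58 under 10 normalised CPM, 0.24 above).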
